A study of Mus musculus with 3 samples.

Results

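The B cell receptor signalling and identity genes described here are 9 genes chosen by name, out of 55536 genes listed in each library. They are Cd79a, Cd79b, Cd22, Blk, Blnk, Pax5, Ebf1, Cr2 and Fcer2a, and all 9 were found by matching the gene identifier to its symbol. They were measured by total RNA-seq in monocytes taken from the blood of adult C57BL/6J mice aged 5 to 6 weeks, with sex recorded as not collected and no genetic change or treatment named. There were 3 libraries of this 1 group (libraries 1, 2 and 3, after their replicate numbers), each made with a ScriptSeq kit from 100 ng of RNA depleted of ribosomal RNA, and no contrast between groups. Because all 3 libraries carry the same donor record, p-values below reflect how these libraries vary, and some of that may be technical.

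The B cell receptor is a membrane immunoglobulin that binds antigen, held together with a heterodimer of the CD79A and CD79B proteins, whose cytoplasmic tails carry the signal into the cell. Kinases of the Src family, among them BLK and LYN, phosphorylate tyrosines in those tails, SYK docks there, and the adaptor BLNK joins SYK to downstream enzymes, while CD22 and the complement receptor CR2 lower and raise the response. PAX5 and EBF1 are the transcription factors that establish and hold B cell identity. Monocytes are myeloid cells that do not rearrange immunoglobulin genes, although they share kinases, phosphatases and adaptors of this pathway with B cells.

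The coding sequence of the signalling tails is shown because it is the part of both CD79 genes that makes them receptor subunits: the immunoreceptor tyrosine-based activation motif. Capitals mark the codons for its tyrosines and for the leucine or isoleucine that follows each one. The stretches come from the GENCODE M21 transcripts, at chr7:24901296-24901469 on the plus strand for Cd79a and chr11:106311867-106312012 on the minus strand for Cd79b (mm10), and each is joined from 2 exons.
Cd79a-201: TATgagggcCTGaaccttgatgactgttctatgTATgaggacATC
Cd79b-202: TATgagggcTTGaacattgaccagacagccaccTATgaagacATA
Of the 45 aligned bases, 31 were identical (68.9%), and 6 of the 15 codons were identical. The other Cd79b transcript, Cd79b-201, holds the same 45 bases, so reads on this stretch do not tell the isoforms of that gene apart.

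Short DNA motifs read by B cell and myeloid transcription factors were looked for in the 250 bases before the annotated start of each gene (RefSeq, GRCm38.p6), on both strands. The table of 32851 promoters held 10 promoters for 7 of the 9 genes, with no entry for Cd79b or Blk. The EBF core, TCCC followed after any 2 bases by GGGA and the same on both strands, stood in 0.779% of all promoters and in that of Cd22. The octamer ATGCAAAT, which on the other strand reads ATTTGCAT, stood in 1.60% of all and in that of Blnk, 130 to 123 bases before the start. The PU box GAGGAA, which on the other strand reads TTCCTC, stood in 23.3% of all, in that of Cd79a and in 1 promoter of Ebf1, there 130 to 125 bases before the start. The promoters of Cd79a and Cd22 are shown with the match in capitals, cut to the stretch that lies in no M21 exon of the gene, on the strand of the gene: 134 bases at chr7:24897247-24897380 and 148 bases at chr7:30879029-30879176.
Cd79a: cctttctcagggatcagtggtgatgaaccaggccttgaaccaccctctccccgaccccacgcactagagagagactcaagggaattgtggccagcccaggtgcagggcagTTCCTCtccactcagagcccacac
Cd22: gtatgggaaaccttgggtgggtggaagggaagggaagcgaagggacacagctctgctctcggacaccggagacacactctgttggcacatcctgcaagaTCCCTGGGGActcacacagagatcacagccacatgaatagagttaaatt
The Cd79a match lay 140 to 135 bases and the Cd22 match 49 to 40 bases before the start. These starts need not be those of M21. The windows with a match of Cd22 and Ebf1 lie inside the M21 span of the gene. The Blnk window has 0 bases outside the M21 exons of that gene. A match describes the letters of the window and shows no binding.

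Levels are given in TPM, an abundance divided by transcript length and scaled to a fixed total per library, which may be compared between genes. Small nuclear RNAs took most of the TPM, 60.8%, 60.0% and 60.5% in libraries 1, 2 and 3, while protein-coding genes held 10.9%, 9.84% and 10.7%. Counted over protein-coding genes only, 1 TPM here would read 9.16, 10.2 and 9.34 TPM. The libraries held 27.2, 26.5 and 19.9 M expected counts, and 1 TPM of a transcript of 1000 bases stood for 112.4, 121.4 and 76.02 counts. Library 3, whose fragments reached 1000 bp against 594 and 491 bp in libraries 1 and 2, stood apart from the other libraries in markers of several blood cells, with values given below. Checked against the monocyte label, 10 of 10 monocyte markers were above 1 TPM by the test described below, led by Lyz2 (lysozyme) at 1448, 1238 and 718 TPM, Ctss at 497, 369 and 234 TPM, and Tyrobp at 173, 162 and 181 TPM. That count does not tell monocytes from other cells, since 6 of 6 NK cell genes and 5 of 5 erythroid genes were above 1 TPM as well.

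All 9 genes were detected in every library, between 0.78 and 13.75 TPM and from 160 to 1609 counts. By edgeR's quasi-likelihood test of each gene against 1 TPM, with Benjamini-Hochberg adjustment over 17678 genes and a threshold of 0.05, 6 of the 9 were above 1 TPM, 0 were below and 3 passed in neither direction. Among all genes tested 43.2% were above and 6.35% below, and among protein-coding genes 54.0% were above and 6.02% below, so the count of 6 in 9 lies near the share of protein-coding genes as a whole. Leaving out library 3 gave 6 genes above as well. Leaving out library 1 gave 5, with Blk at an adjusted p of 0.0667 by edgeR, and leaving out library 2 gave 4.

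The signalling chains of the receptor were among the highest of the 9. Cd79b (ENSMUSG00000040592.11, chr11:106311341-106314762, minus strand) stood at 13.75, 11.57 and 10.78 TPM in libraries 1, 2 and 3, from 1609, 1473 and 835 counts. Its lowest library was above the highest library of every other member, and its mean of 12.0 ± 1.54 TPM (SD, n = 3) was above 1 TPM with an edgeR adjusted p of 1.50e-09. Cd79a (ENSMUSG00000003379.7, chr7:24897381-24902197, plus strand) stood at 3.67, 4.38 and 2.76 TPM, from 529, 689 and 267 counts. It was lowest in library 3, and its mean of 3.60 ± 0.812 TPM (SD, n = 3) was above 1 TPM with an edgeR adjusted p of 1.87e-05.

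The proteins of both chains pair one to one, but their RNAs were not at equal levels. On the log2(TPM + 0.1) scale Cd79a minus Cd79b came to -1.88, -1.38 and -1.93 in turn, averaging -1.73 ± 0.30 (SD, n = 3), which makes Cd79b 3.31-fold higher. Cd79b was higher in 3 of 3 libraries; the exact two-sided sign-flip permutation test gave p = 0.25, the smallest that 3 libraries allow. Cd79a is annotated with a single transcript. Cd79b-202 (1195 bases, 684 of them coding) held 12.49, 10.81 and 10.31 TPM of Cd79b, or 93.3% ± 2.40 (SD, n = 3), and the rest was on Cd79b-201 (1431 bases, 864 coding) at 1.26, 0.76 and 0.47 TPM.

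Of the co-receptors, Cd22, a sialic acid-binding inhibitory receptor of B cells (ENSMUSG00000030577.14, chr7:30865402-30880342, minus strand), stood at 4.78, 5.82 and 10.42 TPM in libraries 1, 2 and 3. Library 3 was the highest, at 0.97 above the mean of libraries 1 and 2 on the log2(TPM + 0.1) scale. The mean of 7.01 ± 3.00 TPM (SD, n = 3) was above 1 TPM with an edgeR adjusted p of 1.70e-07, and it held that call without library 3, at 5.30 TPM. The counts told another order: 1421, 1601 and 1110, which are 52.3, 60.3 and 55.7 CPM (counts scaled to the library's total, with no length), with library 3 within the range of the other libraries and a difference of -0.01 on the log2 scale.

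The higher Cd22 TPM of library 3 went with a shorter length over which its counts were spread. Its effective length, the mean length by which TPM divides, was 2647, 2266 and 1402 bases in libraries 1, 2 and 3. Transcripts not annotated as protein-coding held 52.5%, 49.7% and 67.0% of Cd22 TPM but 36.1%, 18.8% and 26.8% of its counts. The short Cd22-204, a processed transcript of 367 bases, held 0, 0.92 and 3.71 TPM from 0, 23 and 51 counts, so 4.62% of the Cd22 counts of library 3 made 35.6% of its TPM. On protein-coding transcripts alone Cd22 stood at 2.27, 2.93 and 3.44 TPM, still highest in library 3, with a mean of 2.88 TPM. Cd22-201, a protein-coding transcript of 3974 bases, held 0.70, 1.31 and 1.33 TPM. Cd22-202 held 0.90, 0.45 and 0.28 TPM, and Cd22-210 held 0, 0.84 and 0.18 TPM, so no single coding isoform led in every library. The other transcripts that held at least 10% of the gene's TPM in some library were Cd22-211, a processed transcript of 420 bases, at 0.68, 0.72 and 1.64 TPM, and a pair annotated for nonsense-mediated decay. Of that pair, Cd22-214 held 1.22, 0.53 and 0.75 TPM and Cd22-212 held 0.61, 0.72 and 0.78 TPM. The antisense gene Gm29439 shares 479 exon bases with Cd22 and was listed at 0, 0 and 0.16 TPM; whether the counting used strand is not given in the sources read here, so reads of these genes may not be told apart.

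**Figure D1:**
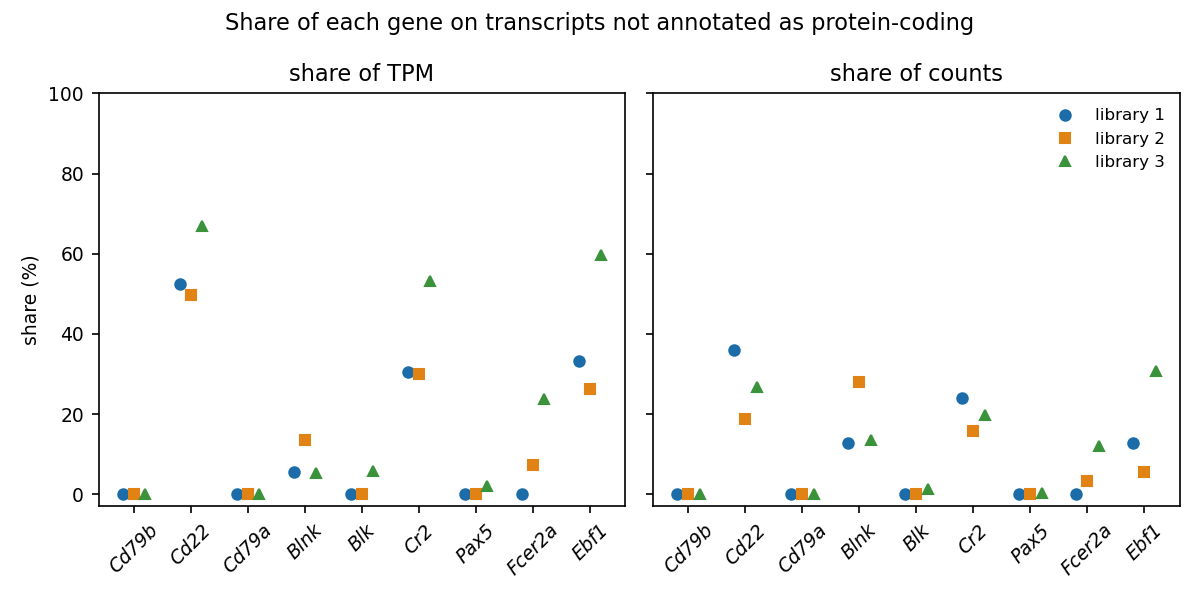
Share (%) of each gene's TPM (left) and of its counts (right) that was assigned to transcripts not annotated as protein-coding, in libraries 1, 2 and 3. Cd22, Cr2 and Ebf1 had the highest shares of TPM, each highest in library 3, and smaller shares of counts, while Cd79a and Cd79b had none.

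Cr2 encodes the complement receptors that, on B cells, bring complement-coated antigen to the receptor (ENSMUSG00000026616.15, chr1:195136811-195176716, minus strand). It stood at 1.37, 3.36 and 0.90 TPM, from 504, 807 and 208 counts. Library 2 was high and library 3 low, in CPM as well (18.6, 30.4 and 10.4), and 95.8% of protein-coding genes with a mean of at least 1 TPM varied less between libraries. Its mean of 1.88 ± 1.31 TPM (SD, n = 3) was above 1 TPM with an edgeR adjusted p of 0.0380; without library 2 the level was 1.14 TPM and the adjusted p 0.677. Both main protein-coding transcripts were highest in library 2. Cr2-202, of 6207 bases, drew most of the counts (275, 499 and 162) and held 0.41, 0.68 and 0.35 TPM. Cr2-201, of 1044 bases, drew 39, 178 and 5 counts, which its shorter length turned into 0.40, 1.66 and 0.07 TPM. Of the other Cr2 transcripts with at least 10% of its TPM in some library, Cr2-204 stood at 0.42, 0.19 and 0.10 TPM, Cr2-203 at 0, 0.40 and 0.37 TPM, Cr2-210 at 0, 0.42 and 0 TPM, and Cr2-212 at 0.15, 0 and 0 TPM.

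Fcer2a, the low-affinity receptor for IgE found on mature B cells (ENSMUSG00000005540.10, chr8:3681737-3694175, minus strand), stood at 1.23, 1.5 and 1.18 TPM, from 285, 364 and 160 counts. The libraries lay close together in TPM but further apart in CPM (10.5, 13.7 and 8.03). The mean was 1.30 ± 0.172 TPM (SD, n = 3), and the level was not told apart from 1 TPM (edgeR adjusted p = 0.265). Fcer2a-201 (2242 bases) held 1.23, 1.39 and 0.90 TPM of it, and the retained-intron transcript Fcer2a-202 held 0, 0.11 and 0.28 TPM.

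The kinase gene Blk and the adaptor gene Blnk were at like levels. Blk, the Src family kinase named for B lymphocytes (ENSMUSG00000014453.4, chr14:63372836-63417037, minus strand), stood at 2.03, 1.69 and 2.06 TPM, from 490, 445 and 320 counts. Its mean was 1.93 ± 0.206 TPM (SD, n = 3; edgeR adjusted p = 0.00536 against 1 TPM), and Blk-201 held 98.1% ± 3.36 of it (SD, n = 3). Blnk, the adaptor that joins SYK to phospholipase C (ENSMUSG00000061132.13, chr19:40928927-40994535, minus strand), stood at 1.81, 2.37 and 1.68 TPM, from 369, 605 and 221 counts. Its mean was 1.95 ± 0.367 TPM (SD, n = 3; edgeR adjusted p = 0.00625), and without library 2 the adjusted p was 0.0838.

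Blk and Blnk did not differ beyond their spread: Blnk was the higher in 1 of 3 libraries. Both Blnk isoforms have 17 exons and nearly the same coding length, 1371 bases in Blnk-201 and 1362 in Blnk-202. Blnk-202 held 1.1, 0.96 and 1.31 TPM against 0.61, 1.09 and 0.28 TPM for Blnk-201, so the isoform that led in libraries 1 and 3 was the lower one in library 2. The retained-intron transcript Blnk-203, of 4534 bases, held 0.10, 0.32 and 0.09 TPM and was highest in library 2.

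The transcription factors of B cell identity had, with Fcer2a, the lowest means of the 9, within ranges that overlap those of their neighbours. Pax5 (ENSMUSG00000014030.15, chr4:44524757-44710487, minus strand) stood at 1.25, 1.47 and 1.45 TPM, and its long transcript Pax5-201 of 8004 bases drew 1065, 1400 and 794 of its 1069, 1400 and 803 counts. It varied least between libraries of the 9 in TPM, at a mean of 1.39 ± 0.122 TPM (SD, n = 3), and did not pass the test of 1 TPM (edgeR adjusted p = 0.0697). It did pass after scaling by TMM factors, where the adjusted p was 0.0469, and by DESeq2's size factors, where it was 0.0468. Genes on the other strand, Gm12462 and 5730488B01Rik, share 125 and 636 exon bases with Pax5 and were listed at 0 TPM, except 5730488B01Rik at 0.02 TPM in library 3.

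Ebf1 (ENSMUSG00000057098.14, chr11:44617317-45008091, plus strand) stood at 0.78, 1.33 and 1.74 TPM, from 388, 734 and 443 counts. Library 1 was low and library 3 high in TPM, at a mean of 1.28 ± 0.482 TPM (SD, n = 3; edgeR adjusted p = 0.268), whereas in CPM library 2 was the highest (14.3, 27.7 and 22.2). Transcripts not annotated as protein-coding held 33.3%, 26.3% and 59.8% of its TPM. On protein-coding transcripts alone, all of it Ebf1-201, it stood at 0.52, 0.98 and 0.70 TPM, so library 3 was no longer the highest. In the main tables its processed transcript Ebf1-207 held 0.11, 0.05 and 0.43 TPM and Ebf1-204 held 0, 0.30 and 0.21 TPM. Ebf1-205, also a processed transcript, of 349 bases, held 0.15, 0 and 0.40 TPM from 3, 0 and 5 counts.

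Ordered by mean TPM the genes ran Cd79b, Cd22, Cd79a, Blnk, Blk, Cr2, Pax5, Fcer2a and Ebf1. The ranges of Cd79b and Cd22, of Cd22 and Cd79a, and of Cd79a and Blnk did not overlap, and the first named of each pair was the higher in 3 of 3 libraries. The place of Cd22 above Cd79a does not hold on protein-coding transcripts alone: there Cd22 had the lower mean (2.88 against 3.60 TPM), was the higher in 1 of 3 libraries, and the ranges overlapped. From Blnk to Ebf1 the ranges of all neighbours overlapped, so their order is not set by these libraries.

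Receptor chains, co-receptors and related genes were present with them. In a list of 14 such genes, chosen with earlier results of these data known, 14 were above 1 TPM by the edgeR test and 0 below. Of all genes tested 43.2% were above. The median of mean levels in the list was 9.12 TPM against 1.93 TPM for the 9 genes. Igkc, the constant region of the kappa light chain, led at 175, 160 and 257 TPM, highest in library 3. Ighm, the constant region of the mu heavy chain, stood at 57.45, 55.74 and 53.10 TPM and varied little. Fcgr2b, an inhibitory Fc receptor that monocytes also express, stood at 18.97, 18.48 and 19.23 TPM, and Siglecg, an inhibitory lectin, was the lowest of the list at 2.27, 2.54 and 1.47 TPM.

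In a list of 17 signal transducers downstream of the receptor, 16 were above 1 TPM and 0 below, with a median of 17.9 TPM. Among protein-coding genes tested, 54.0% were above. Ptpn6, the phosphatase SHP-1 of many blood cells, led at 201, 134 and 140 TPM. Lyn, the kinase that phosphorylates CD79 and CD22 and is also a myeloid kinase, stood at 47.30, 48.66 and 44.83 TPM, and Malt1, of the NF-kappaB branch, at 35.74, 32.66 and 46.27 TPM. The means of Blk and Blnk lay under those of 16 of these 17 genes. The lowest of the list was Rasgrp3, an activator of Ras in B cells, at 1.53, 1.90 and 1.24 TPM (edgeR adjusted p = 0.0860), a level like that of Blk and Blnk.

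Among 10 further B cell transcription factors, 5 were above 1 TPM, 0 below and 5 passed in neither direction. This lies near the share of protein-coding genes tested, 54.0% above and 6.02% below. Ikzf3 led at 10.69, 7.71 and 25.58 TPM, highest in library 3, and T and NK cells express it too. Bcl6 stood at 7.84, 7.79 and 9.46 TPM and Pou2f2 at 3.99, 3.36 and 7.26 TPM, both highest in library 3. Foxo1 was the lowest, at 0.78, 0.81 and 1.06 TPM. Of 8 other genes of mature B cells 7 were above 1 TPM: H2-Ob, a chain of an antigen-loading regulator, led at 8.88, 5.54 and 6.51 TPM, followed by Tnfrsf13b (the receptor TACI) at 7.94, 3.74 and 5.51 TPM and Ly6d at 5.09, 5.65 and 4.79 TPM. Vpreb3 was the lowest at 0.53, 0.11 and 0.09 TPM. Without library 1 the count of this list fell from 7 to 4, while without library 3 it was 7.

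Of 6 genes of B cell precursors, only 2 had the 10 counts needed for the test, and both were below 1 TPM. Rag1, which cuts immunoglobulin genes for rearrangement, stood at 0.09, 0.03 and 0.01 TPM (edgeR adjusted p = 0.0138). Cd93, also a gene of myeloid cells, stood at 0.50, 0.55 and 0.50 TPM (edgeR adjusted p = 0.0224). Igll1 and Rag2 had 0 counts in all 3 libraries, which allows at most 0.0199, 0.0183 and 0.0297 TPM of Igll1 (3 counts, counting error only), and Vpreb1 and Dntt had at most 3 and 5 counts in a library. Of 6 plasma cell genes 4 were above 1 TPM, 0 below and 2 passed in neither direction. Among protein-coding genes tested, 54.0% were above and 6.02% below. Xbp1 led at 27.42, 23.20 and 28.54 TPM, with the immunoglobulin joining chain Jchain at 23.78, 23.87 and 29.05 TPM and Irf4 at 2.68, 3.94 and 3.07 TPM. The 2 that passed in neither direction were Sdc1 and Tnfrsf17. Sdc1 stood at 0.57, 0.69 and 0.47 TPM. Tnfrsf17, the receptor BCMA, was the lowest at 0.14, 0.28 and 1.23 TPM. Which cells these RNAs came from was not tested.

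**Figure D2:**
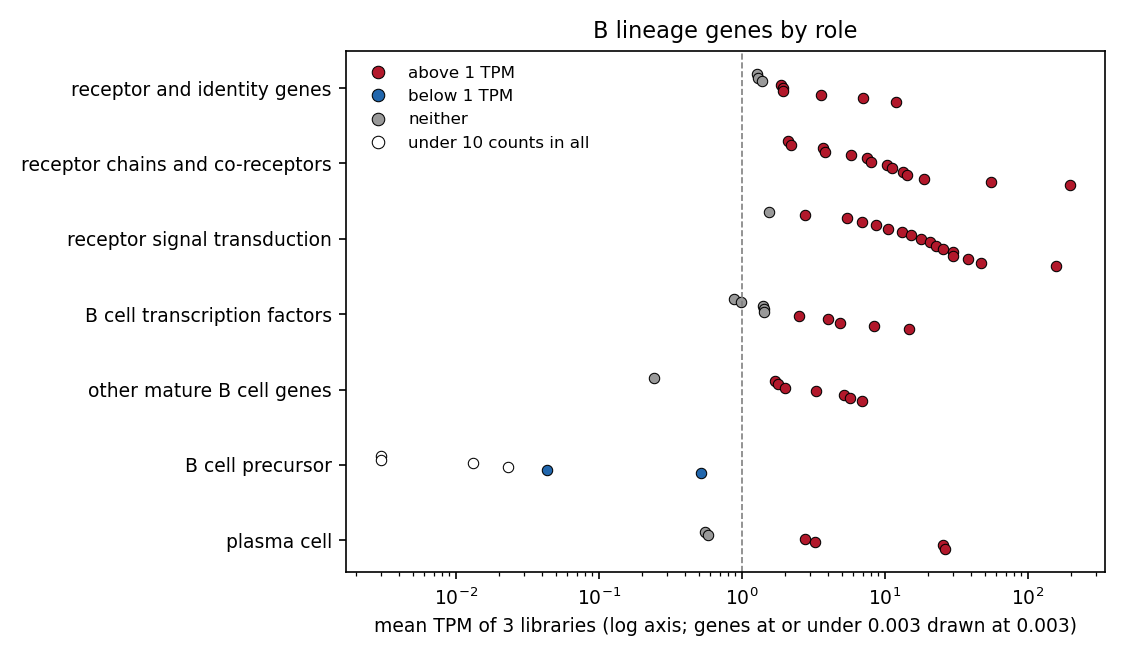
Mean TPM of 3 libraries (log axis) for each gene of the B lineage lists, coloured by the edgeR test against 1 TPM, with white points for genes under 10 counts in all. The 9 receptor and identity genes lie between 1.28 and 12.0 TPM, receptor chains reach 198 TPM, and precursor genes lie under 1 TPM.

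Plasmacytoid dendritic cells share Blnk, Spib and Tcf4 with B cells, and their markers were at low levels: of 6, only Tcf4 was above 1 TPM, at 5.51, 4.91 and 7.72 TPM. Siglech, which defines those cells, stood at 0.17, 0.05 and 0 TPM, and Ccr9 was below 1 TPM at 0.07, 0.03 and 0.24 TPM. Pacsin1 and Cox6a2 stood at most at 0.19 and 0.32 TPM in a library, and Klk1 had 1 count in all. Among protein-coding genes tested, 54.0% were above 1 TPM and 6.02% below.

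Summed over the 9 genes, the level differed less between libraries than that of 6 marker lists of other blood cells. Their summed level was 30.7, 33.5 and 33.0 TPM, a ratio of highest to lowest of 1.09, which was 1.23 without Cd22 (25.9, 27.7 and 22.5 TPM) and 1.40 in CPM (245, 306 and 219). In bulk RNA, fewer cells of a type and less RNA per cell cannot be told apart. The summed level of 6 NK cell genes was 613, 520 and 1434 TPM, that of 8 T cell genes 5.46, 4.88 and 11.5 TPM and that of 5 platelet genes 15.3, 11.0 and 95.2 TPM, all highest in library 3. That of 10 monocyte genes was 2625, 2230 and 1593 TPM, that of 6 neutrophil genes 141, 127 and 9.26 TPM and that of 5 erythroid genes 3532, 3325 and 262 TPM, all lowest in library 3. The monocyte sum is weighted to its most abundant genes, Lyz2 and Ctss. Of the 10 monocyte genes, 6 were lower in library 3 than in both other libraries and 3 higher. The median level of that list was 85.1, 85.3 and 90.9 TPM, highest in library 3. The ratio of highest to lowest library ran from 1.65 (monocyte) to 15.2 (neutrophil) in these 6 lists. The neutrophil ratio rests on Retnlg, at 124, 114 and 0 TPM with 0 counts in library 3: without it, a choice made after its values were seen, the list summed to 16.4, 13.0 and 9.26 TPM, a ratio of 1.77, and Csf3r was highest in library 3. Like steadiness was not particular to the 9 genes. The ratio was 1.24 for signal transducers, 1.25 for plasma cell genes, 1.27 for other mature B cell genes and 1.36 for receptor chains. For precursor genes it was 1.07, but Cd93, at 0.50, 0.55 and 0.50 TPM, made most of their sum of 0.590, 0.580 and 0.620 TPM. The ratio was 1.64 for plasmacytoid dendritic cell genes. For the further B cell transcription factors it was 1.85, above that of the monocyte list. The part of these other cells in the levels of single B cell genes was not tested.

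Of these other lists, 6 of 6 NK genes were above 1 TPM, led by Gzma at 484, 379 and 1014 TPM, and 5 of 5 erythroid genes, led by Hba-a2, whose near-identical copy Hba-a1 makes the split uncertain. Of 8 T cell genes 2 were above, Lat and Cd3g, while Cd4 was below at 0.42, 0.49 and 0.32 TPM and Cd3e was the lowest at 0.08, 0.03 and 0.16 TPM. Of 5 platelet genes 4 were above, and of 6 neutrophil genes 2, Retnlg and Csf3r, with Ly6g at 0 counts in all libraries. The share over all genes tested was 43.2% above and 6.35% below.

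**Figure D3:**
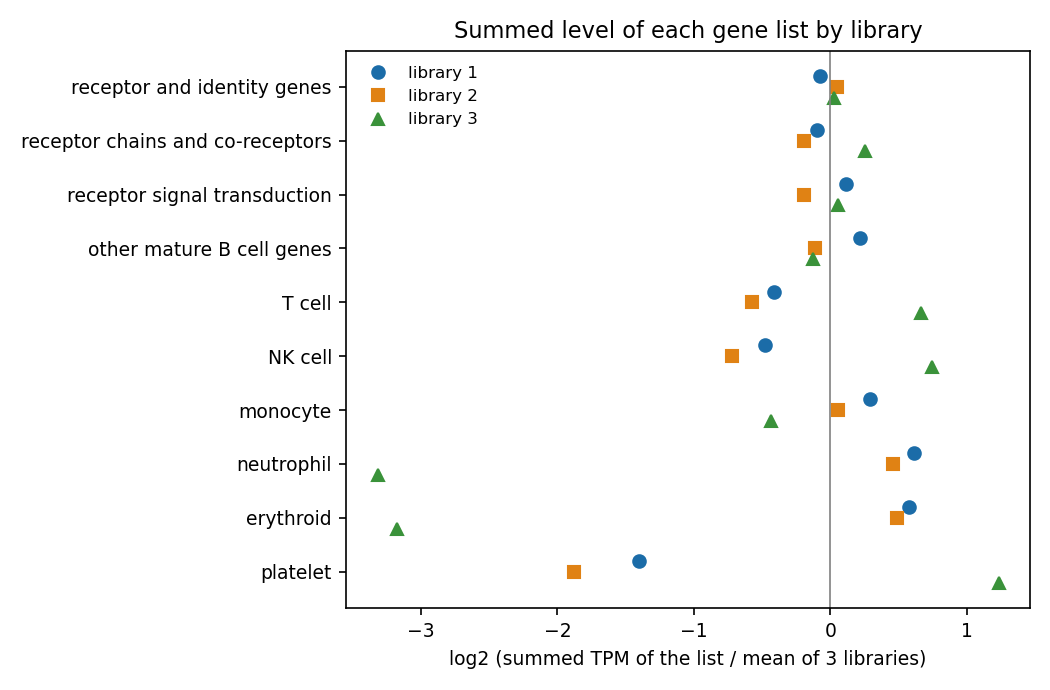
Summed TPM of gene lists in libraries 1, 2 and 3, as log2 of its ratio to the mean of 3 libraries. Drawn are the 9 genes, receptor chains, signal transducers, other mature B cell genes, and monocyte, T cell, NK cell, neutrophil, erythroid and platelet genes. The lists of further B cell transcription factors, precursor, plasma cell and plasmacytoid dendritic cell genes are not drawn. The points of the 9 receptor and identity genes lie close to 0, while erythroid genes and, through Retnlg, neutrophil genes were far lower and NK, T cell and platelet genes higher in library 3.

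Single members still shifted in library 3. By TPM, 5 of the 9 were lower there than in both other libraries (Cd79a, Cd79b, Blnk, Cr2 and Fcer2a) and 3 higher (Cd22, Blk and Ebf1). The median difference of library 3 from libraries 1 and 2 was -0.19 on the log2(TPM + 0.1) scale, against 0.30 over 8302 protein-coding genes with a mean of at least 1 TPM, of which 1674 were lower in library 3 than in both and 4828 higher. In CPM the median was -0.45 against 0.13, with 6 of 9 lower and 0 higher. Among the 8284 of those protein-coding genes with counts in every library, 2683 were lower in CPM and 4128 higher. On protein-coding transcripts alone, in TPM, the members' median was -0.22, with 5 of 9 lower and only 1, Cd22, higher. With 1 library on one side, the difference of library 3 has no replicate check. The median coefficient of variation (SD over mean) between libraries was 18.8% for the 9 genes and 24.5% for the protein-coding genes in TPM. In CPM the order was the other way, 26.5% against 19.3%, so no statement that these genes vary less or more than others holds on both scales.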

How the data were processed

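The 3 libraries of 1 group were compared with fixed levels, since the labels give no contrast. Per the file headers and the accompanying notes, the authors quantified reads on mm10 with GENCODE M21 and M4, with no program named; the deposited gene tables hold expected counts and TPM, and further deposited transcript tables hold estimated counts and TPM. Symbols came from the M21 transcript tables, and coordinates and transcript types from GENCODE M21.

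Expected counts were rounded and fitted with edgeR 4.0.16 (R 4.3.3; glmQLFit, intercept only), with the log of the count that 1 TPM stands for as offset, which makes the two-sided quasi-likelihood F test one of 1 TPM. Genes with a summed count of at least 10 were tested. Genes with an effective length of 0 in a library (3471) and rows naming no gene (at most 0.000571% of counts) were left out. The fit was tested on simulated data in which every gene had a coefficient of variation of 0.788. The 9 genes varied less in TPM (median 18.8%, highest 69.6%), so the rates that follow need not be theirs. The fit called 2.08% of genes set at 1 TPM, 16.3% at 2 TPM and 80% at 4 TPM. Below the level it called 12% at 0.5 TPM and 56.2% at 0.25 TPM. A gene that passed in neither direction is thus not shown to lie at 1 TPM.

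Alternatives were DESeq2 1.42.0, limma 3.58.1 on log2(TPM + 0.1), other scalings, tables, filters and levels, and leaving out each library; CPM and protein-coding transcripts alone were added after seeing the data. The 9 genes and the lists (116 genes in all, each in 1 list) were chosen with earlier results of these data known. The text names all 9 genes, the 3 highest and the lowest of each B lineage list and those below 1 TPM. It also names transcripts holding at least 10% of a gene's TPM in a library. Sdc1 is named outside that rule. In the lists of other blood cells fewer genes are named than the rule allows.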

Additional observations from a re-analysis of the deposited data

How the results depend on the processing

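Of 6 genes above 1 TPM, the count was 4 to 6 over the fits that left out 1 library each, and 5 to 9 over the other tools, tables, filters and scalings. At a level of 2 TPM it was 3: there Blk (1.93 TPM), Blnk (1.96 TPM) and Cr2 (1.88 TPM) lay under the level, without passing the test. Cr2 also did not pass with limma (adjusted p 0.189). The count of all genes above 1 TPM, 7638, was 12092 on a scale of protein-coding TPM and 7237 to 7558 without 1 library. The count below 1 TPM, 1123, changed with the scale, the tool and the libraries: it was 4117 with DESeq2's Wald test, 6650 with limma, 1805 with the estimated-count transcript tables, 1 on the protein-coding scale and 251 to 1085 without 1 library; the cause was not tested. On the protein-coding scale 10 of 10 transcription factors and 1 precursor gene were above 1 TPM. The list of other mature B cell genes ranged from 4 to 7 without 1 library. The median shift of library 3 was 0.20 in the estimated-count tables, -0.50 with TMM factors, -0.45 in CPM, and -0.10 and -0.06 without libraries 1 and 2, so its sign is not settled. Cd79a minus Cd79b stayed between -1.90 and -1.51 on the log2 scale in every alternative run. In the estimated-count tables Pax5-201 held 66.1%, Blk-201 87.0%, Fcer2a-201 70.0%, Cr2-202 17.2% and Ebf1-201 42.6% of their genes' TPM. The Cd22 isoforms differed there as well. Cd22-214 stood at 0, 0.37 and 0 TPM. Cd22-206, at 0 TPM in the main tables, stood at 2.85, 0.38 and 3.83 TPM. Isoform shares thus depend on the table. No paired analysis was possible because the series holds 1 group.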

Other observations

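The 5 protein-coding genes whose TPM profile over 3 libraries lay nearest to the median profile of the 9 genes were Nom1, Mut, Naip2, Magoh and Setd6, at distances of 0.0599 to 0.0653 on the log2 scale. With 3 points a gene, 80 of 8293 genes lay within 0.1, so these names carry little weight. Nom1 stood at 1.14, 1.32 and 1.11 TPM and Magoh, of the exon junction complex, at 17.2, 19.3 and 16.5 TPM, each slightly higher in library 2.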
